A study of Homo sapiens with 6 samples.

Results

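Fatty acid oxidation in mitochondria and peroxisomes was followed through 34 listed genes, from the enzymes that activate a fatty acid to the receptors that control the pathway. They were chosen by symbol in the platform annotation, and each gene was read from its brightest probe set, by the mean of the 6 arrays. Of the 34 genes, 33 were measured, out of 18239 genes in all, and ACSL3 had no probe set assigned to it alone. HK-2, an immortalized line derived from human kidney proximal tubule, was kept in serum-free keratinocyte medium with epidermal growth factor and bovine pituitary extract. The 3 groups were untreated cells, called control, cells given 50 μM cisplatin for 6 h and cells given 50 μM cisplatin for 24 h, with 2 arrays each. The labels call these arrays biological replicates and say no more of how cultures were separated, so a p-value here speaks for the spread of these samples, which may be technical. No time is labelled for the untreated cells, so cisplatin and time in culture cannot be told apart.

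A fatty acid is burned in steps. It is first joined to coenzyme A, then carried through the mitochondrial membranes as a carnitine ester, and is then shortened by a repeating spiral of dehydrogenation, hydration, another dehydrogenation and thiolytic cleavage. Peroxisomes run a similar spiral on very long and branched chains and pass shortened chains to mitochondria. Proximal tubule cells of the kidney draw much of their ATP from this pathway, and PPARα is its best-known transcriptional activator.

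All levels below are log2 signals as deposited, and all changes are log2 fold changes of the cisplatin group against control unless 24 h is set against 6 h. A gene was called higher or lower at a limma adjusted p under 0.05, adjusted by Benjamini-Hochberg across the 18239 genes, and errors are standard errors of the fit. Over genes, the replicate arrays of each group correlated at 0.997 or 0.998. Between replicates the members differed by a median of 0.07 for control, 0.06 for 6 h and 0.08 for 24 h. Member levels ran from 4.21 to 10.3 as means over all arrays, with a median of 7.85 against 5.35 for all genes, and 5 members had a mean under 5. The 23 control probe sets with no intended target had a median level of 2.47, with a range of 2.01 to 7.46. Among the proximal tubule markers measured, 9 of 10 were under 5, LRP2, CUBN and AQP1 among them, and DPP4 was above 7. Of 6 epithelial markers, KRT8, KRT18, KRT19 and EPCAM were above 7, and KRT7 and CDH1 were under 5. Endothelial markers (4 of 4) and markers of other tubule segments (4 of 4) were under 5, and LUM of 5 fibroblast markers and CD68 of 3 leukocyte markers were above 7. Bulk RNA cannot tell fewer cells of a kind from less RNA in each cell.

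Because every array was set to the same distribution, a change here is relative to the other genes on the array. Bacterial spike-in RNAs moved upward on that scale, by 0.10 at 6 h and 0.41 at 24 h for the 9 hybridization spike-ins. The mean of 36 bacterial control probe sets, called all spike-ins here, moved by 0.37 and 0.89. Besides those 9 it holds 12 poly-A spike-ins, which moved by 1.21 at 24 h, and 15 other bacterial controls, which moved by 0.91. The poly-A spike-ins and other controls were dim, with control means of 4.21 and 3.84, against 9.40 for the hybridization spike-ins. The mean of 11 housekeeping genes moved by 0.10 at 6 h and 0.06 at 24 h. Counts are therefore also given with each of these references held constant. Beta-actin, whose 3′ minus 5′ probe signal rises as RNA shortens, gave a difference of 1.59 ± 0.68 for control, 1.77 ± 0.34 for 6 h and 2.40 ± 0.61 for 24 h (SD, n = 2). The same difference for GAPDH was 0.265 ± 0.005 for control, 0.249 ± 0.005 for 6 h and 0.349 ± 0.065 for 24 h. The part of RNA length in the results was not tested.

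After 24 h of cisplatin, most of the pathway between the carnitine shuttle and electron transfer was called higher on the deposited scale. With either the hybridization spike-ins or all spike-ins held constant, most of it was no longer called higher. The acyl-CoA synthetases ACSL4 and ACSL5 were lower on every scale tried. At 24 h, 17 of the 33 members were called higher, against 31.2% of all genes, and 4 were called lower, against 23%. The median change of the members was 0.33, and that of all genes was 0.10. At 6 h, 17 members were called higher, against 14% of all genes, and 1 lower, against 15.8%, with a median of 0.26 for the members and 0.03 for all genes. Calls at 6 h were fewer when an array was left out, for members and for all genes, where the lone array left in a group is assumed to vary like the others. Without control replicate 1, 11 members were called higher, against 11.1% of all genes, and without control replicate 2, 8 were, against 9.11%. Without 6 h replicate 1, 9 were called higher, against 9.09%, and without 6 h replicate 2, 9 were, against 9.21%. Among the 6 h calls lost in each of these settings were those of ACSL1, ACADM, ACADVL, ECHS1, HADHA and ABCD3. The change itself stayed between 0.26 and 0.27 for ACADM and between 0.23 and 0.25 for HADHA. It ran from 0.27 to 0.33 for ACSL1, from 0.23 to 0.33 for ACADVL and from 0.28 to 0.35 for ECHS1. These settings are a weaker check on the 24 h calls, because none leaves out a 24 h array. A 6 h array enters the 24 h comparison only through the shared estimate of spread. The direction at 24 h depended on the scale. Holding a reference constant shifts every gene on an array by the same amount, so the counts over all genes moved too. Under constant hybridization spike-ins 9 members were called higher, against 9.49% of all genes, and 11 lower, against 53.9%. With all spike-ins 1 was higher, against 3.25%, and 24 lower, against 88.3%. With housekeeping genes 17 were higher, against 24.9%, and 5 lower, against 25.1%. At 6 h the hybridization spike-ins gave 9 higher and 1 lower, against 8.48% and 19.4%, all spike-ins 2 and 6, against 3.78% and 56.2%, and housekeeping genes 9 and 1, against 9.25% and 20.4%. The scale counts given below for each role are to be read against these same shares. The thresholds of the study, a fold of at least 2 with an unadjusted p under 0.01, were passed by 3 members at 24 h (CPT2, ETFDH and ACSL4), against 12.1% of all genes, by 0 members at 6 h, against 4.93%, and by ACSL4 for 24 h set against 6 h, against 3.37%.

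**Figure D1:**
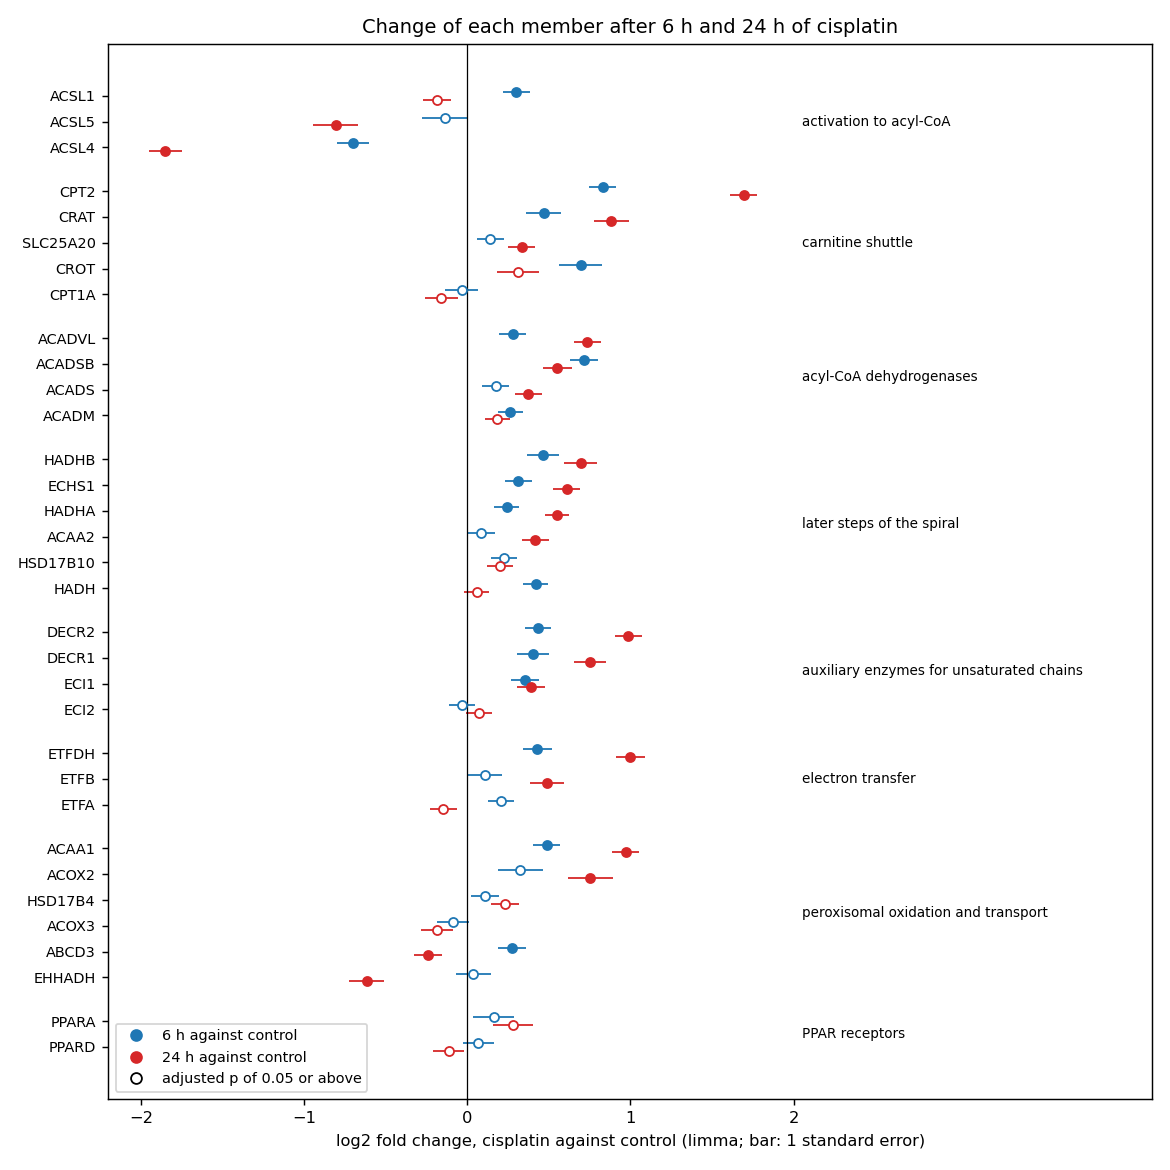
Change of each of the 33 members after 6 h (blue) and 24 h (red) of cisplatin against control, as log2 fold change with 1 standard error, grouped by role. Filled points passed the test. CPT2 reached 1.69 and ACSL4 -1.85 at 24 h, and most points between the shuttle and electron transfer lie right of 0 on the deposited scale. Holding the hybridization spike-ins constant would move every 24 h point left by 0.41 and leave 9 members called higher. With all spike-ins constant the shift would be 0.89, leaving 1 member called higher.

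Acyl-CoA synthetases activate long-chain fatty acids, and ACSL4, the form that prefers arachidonic and other polyunsaturated chains, had the largest fall among the members. ACSL4 read 10.56 and 10.62 in control cells, 9.89 and 9.89 at 6 h, and 8.87 and 8.61 at 24 h. No array of a later time reached any array of an earlier one. The change was -0.70 ± 0.10 at 6 h (adjusted p = 0.00087) and -1.85 ± 0.10 at 24 h, or 3.61-fold lower (adjusted p = 1.70e-06), and it was called lower under every scale tried. Its other probe set, with a mean of 3.74, changed by 0.05 and 0.02. ACSL5, which acts on long chains and is best known from intestine, read 5.99 and 5.71 in control cells, 5.70 and 5.72 at 6 h, and 4.86 and 5.23 at 24 h. It did not pass at 6 h (-0.14 ± 0.14) and fell by 0.81 ± 0.14 at 24 h (adjusted p = 0.00125). A second probe set, with a mean of 4.90, was lower at both times, with -0.61 at 6 h (adjusted p = 0.0256, over all probe sets) and -1.05 at 24 h. ACSL1, the main form for oxidation in muscle, read 7.56 and 7.62 in control cells, 7.91 and 7.88 at 6 h, and 7.34 and 7.48 at 24 h. It was higher at 6 h by 0.30 ± 0.08 (adjusted p = 0.0279), and at 24 h its change was -0.18 ± 0.08 (adjusted p = 0.0991). Thus 2 of the 3 measured synthetases fell at 24 h, and all 3 were lower at 24 h than at 6 h.

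The promoter of ACSL4 is shown because it belongs to the member that fell furthest: the 250 bases before its RefSeq start on GRCh38.p14, chrX:109733258-109733507, minus strand, with GC boxes (GGGCGG on either strand) in capitals, of which it holds 3 counting overlaps.
ACSL4: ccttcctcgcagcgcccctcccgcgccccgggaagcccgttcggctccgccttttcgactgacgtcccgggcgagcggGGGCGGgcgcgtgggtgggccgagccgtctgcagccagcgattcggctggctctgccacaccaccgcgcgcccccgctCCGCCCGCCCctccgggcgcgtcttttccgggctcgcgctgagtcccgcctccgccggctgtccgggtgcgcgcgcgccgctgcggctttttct

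The carnitine shuttle held the largest rise. CPT2, the inner-membrane enzyme that turns acylcarnitines back into acyl-CoA, read 5.09 and 5.11 in control cells, 6.00 and 5.86 at 6 h, and 6.80 and 6.79 at 24 h. The groups were fully separate at each step. Its change was 0.83 ± 0.08 at 6 h (adjusted p = 0.000128) and 1.69 ± 0.08 at 24 h (adjusted p = 1.03e-06), a 3.24-fold rise, and CPT2 alone stayed called higher at 24 h under all 3 references. CPT1A, the outer-membrane enzyme that malonyl-CoA inhibits and that sets the pace of entry, was dim, between 4.13 and 4.41 on all arrays, and changed by -0.03 ± 0.10 and -0.16 ± 0.10 without passing. CRAT, which moves acetyl groups between carnitine and coenzyme A, read 6.30 and 6.04 in control cells, 6.71 and 6.57 at 6 h, and 7.11 and 6.99 at 24 h. It rose by 0.47 ± 0.11 at 6 h (adjusted p = 0.0109) and 0.88 ± 0.11 at 24 h (adjusted p = 0.000173). SLC25A20, the translocase that carries acylcarnitines across the inner membrane, read 5.18 and 5.24 in control cells, 5.37 and 5.33 at 6 h, and 5.49 and 5.59 at 24 h. Its rise of 0.33 ± 0.08 passed only at 24 h (adjusted p = 0.00837). CROT, the peroxisomal enzyme that exports medium chains as carnitine esters, was higher at 6 h by 0.69 ± 0.13 (adjusted p = 0.00417), and its 0.31 ± 0.13 at 24 h did not pass (adjusted p = 0.0759). The 24 h value was 0.51 without 24 h replicate 1 (adjusted p = 0.00608) and 0.11 without 24 h replicate 2. It passed with its 4 probe sets averaged (0.50, adjusted p = 0.000582) and with trended and robust eBayes (adjusted p = 0.0219), and the 3 dimmer probe sets gave 0.37 to 0.90 at 24 h. In all, 3 of 5 shuttle genes rose at each time on the deposited scale, whereas at 24 h 2 were called higher and 1 lower with the hybridization spike-ins constant, and 1 and 3 with all spike-ins.

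The promoter of CPT2 is shown as that of the member that rose furthest, chr1:53196574-53196823, plus strand, again the 250 bases before the RefSeq start with its 3 GC boxes in capitals.
CPT2: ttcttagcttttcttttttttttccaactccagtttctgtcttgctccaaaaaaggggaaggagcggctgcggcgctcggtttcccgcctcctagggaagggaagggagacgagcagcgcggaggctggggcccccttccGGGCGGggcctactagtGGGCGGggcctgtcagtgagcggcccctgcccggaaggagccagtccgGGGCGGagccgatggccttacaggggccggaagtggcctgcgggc

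Acyl-CoA dehydrogenases open the spiral, each on its own chain length. ACADVL, which takes very long chains, read 9.54 and 9.44 in control cells, 9.79 and 9.74 at 6 h, and 10.18 and 10.26 at 24 h. It rose by 0.28 ± 0.08 at 6 h (adjusted p = 0.0342) and 0.74 ± 0.08 at 24 h (adjusted p = 0.000103). ACADSB, which takes short and branched chains, including the isoleucine product, read 5.17 and 5.33 in control cells, 6.00 and 5.93 at 6 h, and 5.81 and 5.78 at 24 h. Its 6 h arrays were the highest, with a rise of 0.72 ± 0.09 (adjusted p = 0.00037) at 6 h and 0.55 ± 0.09 at 24 h (adjusted p = 0.000794), and the step between the times did not pass (-0.16 ± 0.09). Its dimmer probe set, with a mean of 3.94, took another course, 0.44 at 6 h and 1.26 at 24 h, a step of 0.815 (adjusted p = 0.00262, over all probe sets). ACADS, the short-chain form, was dim and read 4.71 and 4.64 in control cells, 4.86 and 4.84 at 6 h, and 4.99 and 5.12 at 24 h. Its 0.38 ± 0.08 at 24 h passed (adjusted p = 0.00557), though the mean of its 2 probe sets did not (0.23, adjusted p = 0.0627). ACADM, the medium-chain form whose deficiency is the commonest disorder of the pathway, passed at 6 h with 0.26 ± 0.08 (adjusted p = 0.0302), and its 0.19 ± 0.08 at 24 h did not (adjusted p = 0.0691). At each time 3 of the 4 dehydrogenases rose on the deposited scale, whereas at 24 h 1 was called higher with the hybridization spike-ins constant and 3 were called lower with all spike-ins.

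The later steps of the spiral had a median change of 0.28 at 6 h and 0.48 at 24 h, beside 0.27 and 0.46 for the dehydrogenases. HADHA and HADHB, the α and β subunits of the mitochondrial trifunctional protein, both rose at both times. HADHA read 9.76 and 9.78 in control cells, 10.01 and 10.01 at 6 h, and 10.32 and 10.32 at 24 h, a change of 0.24 ± 0.08 (adjusted p = 0.0427) and 0.55 ± 0.08 (adjusted p = 0.000347). HADHB read 8.63 and 8.87 in control cells, 9.17 and 9.26 at 6 h, and 9.42 and 9.47 at 24 h, a change of 0.47 ± 0.10 (adjusted p = 0.00758) and 0.69 ± 0.10 (adjusted p = 0.000442). The groups of both subunits were separate, and all 5 probe sets of HADHB lay above 0 at both times. Of 4 HADHA probe sets 3 did, and the dimmest, with a mean of 3.03, read -0.19 and -0.01. Another, with a mean of 8.055, changed by 0.07 at 6 h (adjusted p = 0.736, over all probe sets) and 0.44 at 24 h. The last, with a mean of 7.72, changed by 0.31 and 0.20 and passed at neither time. ECHS1, the hydratase for short chains, read 10.04 and 9.97 in control cells, 10.32 and 10.31 at 6 h, and 10.55 and 10.67 at 24 h. It rose by 0.31 ± 0.08 (adjusted p = 0.0218) and 0.61 ± 0.08 (adjusted p = 0.000337). ACAA2, the mitochondrial thiolase, rose only at 24 h (0.42 ± 0.09, adjusted p = 0.00331). HSD17B10, a dehydrogenase of short and branched chains, stayed between 9.67 and 9.96 and passed at neither time. In total 4 of these 6 genes rose at 24 h and 4 at 6 h, and the 24 h counts became 1 higher and 1 lower under the hybridization spike-ins, and 0 and 5 under all spike-ins.

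HADH, the dehydrogenase of medium and short 3-hydroxyacyl chains, depended on the probe set. The brighter one, which stands for the gene, rose by 0.42 ± 0.08 at 6 h (adjusted p = 0.0037) and then read 0.06 ± 0.08 at 24 h. The other, with a mean of 7.99 against 8.54, changed by 0.59 at 6 h and 1.01 at 24 h (adjusted p = 5.23e-05 at 24 h, over all probe sets). Both rose at 6 h, and only the dimmer one was higher at 24 h than at 6 h (0.42 against -0.36 for the brighter).

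**Figure D2:**
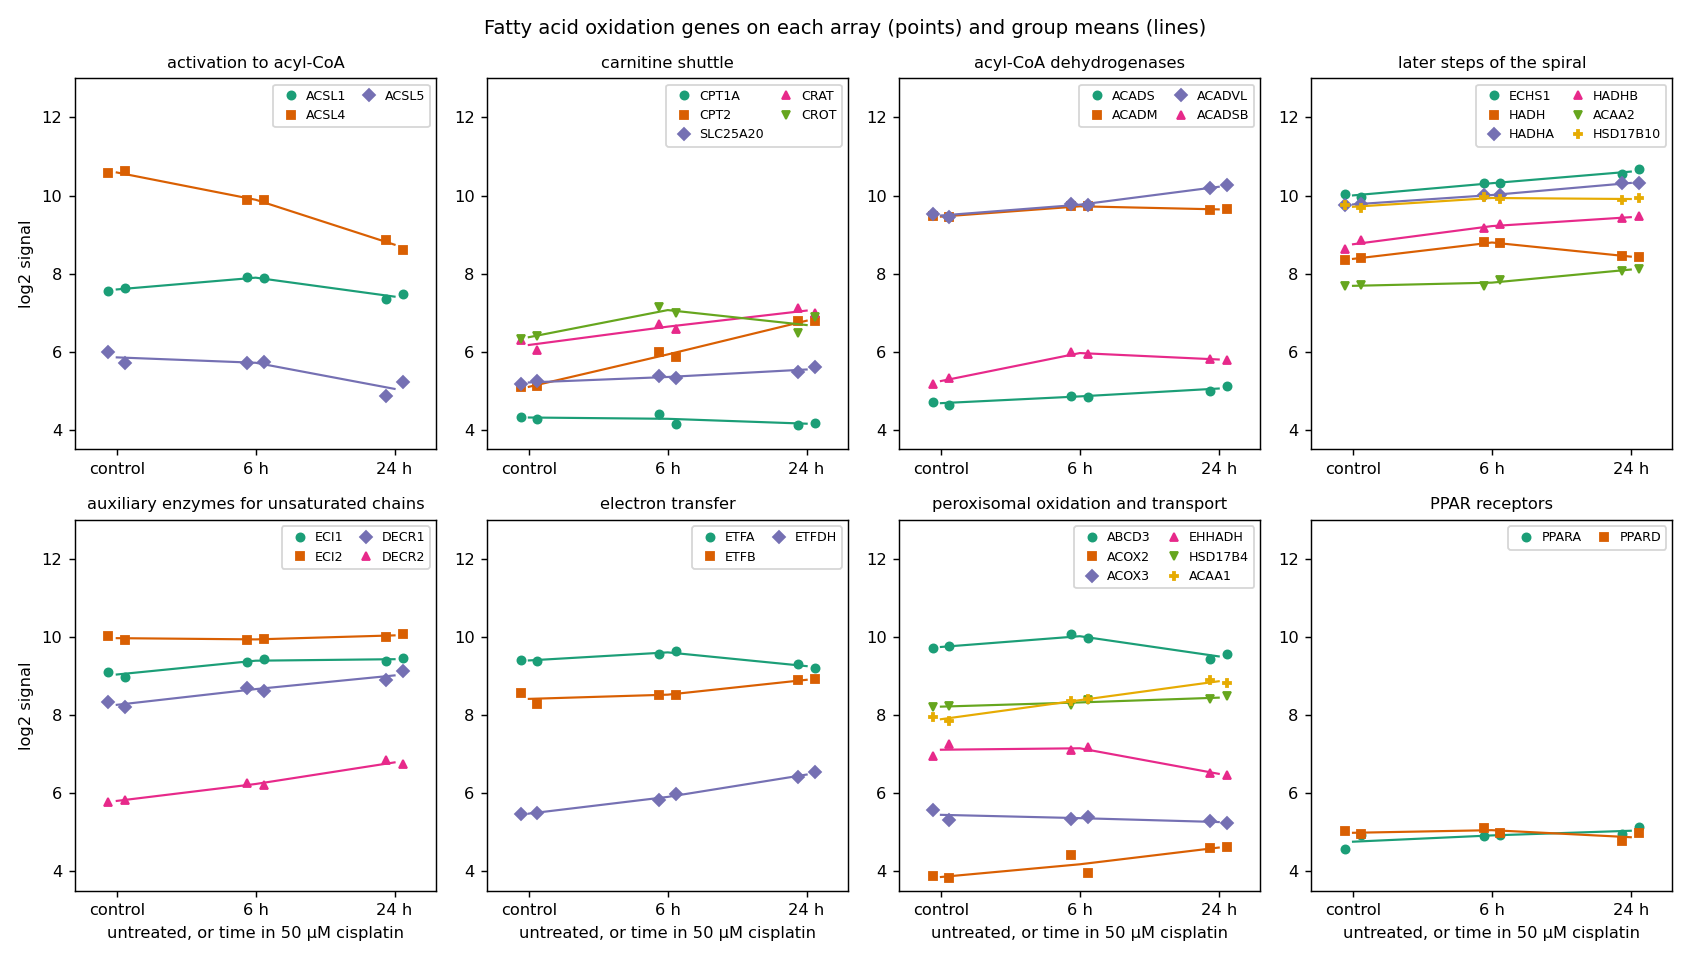
Log2 signal of each member on each array (points) with group means (lines), in 8 panels by role; each panel runs from control cells through 6 h to 24 h of 50 μM cisplatin. CPT2, ETFDH and ACAA1 climb in 2 steps, ACSL4 drops in 2 steps to 8.87 and 8.61, and ACADSB, CROT and ABCD3 have their highest mean at 6 h, all on the deposited scale.

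Auxiliary enzymes prepare double bonds of unsaturated chains for the spiral, and both dienoyl-CoA reductases rose on the deposited scale but were not called higher with all spike-ins constant. DECR2, the peroxisomal reductase, read 5.77 and 5.84 in control cells, 6.25 and 6.22 at 6 h, and 6.84 and 6.74 at 24 h. It rose by 0.43 ± 0.08 (adjusted p = 0.0041) and 0.99 ± 0.08 (adjusted p = 1.77e-05). DECR1, the mitochondrial reductase, read 8.33 and 8.20 in control cells, 8.71 and 8.63 at 6 h, and 8.91 and 9.13 at 24 h. Its rise was 0.40 ± 0.10 (adjusted p = 0.0154) and 0.75 ± 0.10 (adjusted p = 0.000272). The 2 isomerases, which shift a double bond into the position the hydratase needs, differed in outcome. ECI1, mitochondrial, read 9.10 and 8.99 in control cells, 9.36 and 9.44 at 6 h, and 9.39 and 9.48 at 24 h, with a rise of 0.35 ± 0.08 (adjusted p = 0.0137) and 0.39 ± 0.08 (adjusted p = 0.00454). ECI2, found in both organelles, stayed between 9.92 and 10.07 and did not pass. Under the hybridization spike-ins DECR1 and DECR2 were still called higher at 24 h and ECI2 was lower, while with all spike-ins none of the 4 was higher.

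Electrons from the dehydrogenases pass through the flavoprotein ETF, made of ETFA and ETFB, to ETFDH, which hands them to ubiquinone in the respiratory chain. ETFDH read 5.47 and 5.48 in control cells, 5.83 and 5.98 at 6 h, and 6.42 and 6.53 at 24 h. It rose by 0.43 ± 0.09 (adjusted p = 0.00672) and 1.0005 ± 0.09 (adjusted p = 2.67e-05), and its other probe set changed by 0.25 and 0.78. The subunits of ETF, partners in 1 protein, took opposite steps from 6 h to 24 h on their brightest probe sets. The difference between them was not tested. ETFB read 8.56 and 8.28 in control cells, 8.53 and 8.52 at 6 h, and 8.89 and 8.92 at 24 h, a rise of 0.49 ± 0.10 at 24 h (adjusted p = 0.00375). ETFA read 9.41 and 9.40 in control cells, 9.58 and 9.64 at 6 h, and 9.30 and 9.21 at 24 h. It passed at neither time against control (0.21 ± 0.08 and -0.15 ± 0.08), but at 24 h it was below 6 h by 0.35 ± 0.08 (adjusted p = 0.00934). Its other probe set, with a mean of 9.40, had a step of -0.21 that did not pass (adjusted p = 0.111, over all probe sets). Between the same times ETFB was higher at 24 h by 0.38 ± 0.10 (adjusted p = 0.0191). Under the hybridization spike-ins ETFDH was the 1 gene of the 3 called higher at 24 h and ETFA was lower, and under all spike-ins 2 of the 3 were lower.

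Peroxisomal enzymes split by direction. ACAA1, the peroxisomal thiolase, read 7.95 and 7.84 in control cells, 8.35 and 8.42 at 6 h, and 8.91 and 8.83 at 24 h. It rose by 0.49 ± 0.08 (adjusted p = 0.00236) and 0.97 ± 0.08 (adjusted p = 2.10e-05), with all 6 of its probe sets above 0 at both times. EHHADH, the L-bifunctional enzyme that hydrates and dehydrogenates straight and dicarboxylic chains, read 6.96 and 7.27 in control cells, 7.12 and 7.19 at 6 h, and 6.52 and 6.47 at 24 h. It fell by 0.62 ± 0.11 at 24 h (adjusted p = 0.00147), though the mean of its 3 probe sets did not pass (-0.21, adjusted p = 0.125). HSD17B4, the D-bifunctional enzyme that runs the same steps on branched and very long chains, changed by 0.11 ± 0.09 and 0.23 ± 0.09 (adjusted p = 0.0514) without passing. ACOX2, an oxidase of branched chains and bile acid precursors, read 3.89 and 3.82 in control cells, 4.41 and 3.95 at 6 h, and 4.59 and 4.62 at 24 h. Its 0.75 ± 0.14 at 24 h passed (adjusted p = 0.00179) at the lowest level of any member. ACOX3, which also acts on branched chains, did not pass (-0.18 ± 0.10 at 24 h).

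ABCD3, the membrane transporter that brings branched and dicarboxylic acyl chains into peroxisomes, was the only member called in opposite directions. It read 9.72 and 9.78 in control cells, 10.07 and 9.97 at 6 h, and 9.45 and 9.57 at 24 h. The 3 groups did not overlap. It was higher at 6 h by 0.28 ± 0.09 (adjusted p = 0.042) and lower at 24 h by the test (-0.24 ± 0.09, adjusted p = 0.0416), a pattern that 0.345% of all genes shared. The 24 h call was lost without any of control replicate 1, control replicate 2, 6 h replicate 1, 6 h replicate 2 and 24 h replicate 1 (adjusted p = 0.0774, 0.156, 0.0609, 0.0609 and 0.173), and the 6 h call without any control or 6 h array (adjusted p from 0.0873 to 0.226). Its other 4 probe sets were between -0.09 and 0.09 at 24 h. Of the 6 peroxisomal genes, 2 rose at each time and 2 fell at 24 h, and the 24 h counts were 2 and 3 under the hybridization spike-ins and 0 and 4 under all spike-ins.

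The receptors PPARA and PPARD were dim and did not pass. PPARA, the activator named above, read 4.58 and 4.93 in control cells, 4.91 and 4.93 at 6 h, and 4.95 and 5.13 at 24 h, a change of 0.28 ± 0.12 at 24 h (adjusted p = 0.0879). Its 8 probe sets disagreed, 5 above 0 and 3 below 0 at 24 h, with values from -0.51 to 0.54. PPARD, which is expressed widely and also drives oxidation genes, read 5.02 and 4.95 in control cells, 5.11 and 4.99 at 6 h, and 4.77 and 4.97 at 24 h. Its change was -0.11 ± 0.10 at 24 h (adjusted p = 0.349).

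The time course sorted the members into a few patterns. Both times were called higher for 12 members (CPT2, CRAT, ACADVL, ACADSB, ECHS1, HADHA, HADHB, ECI1, DECR1, DECR2, ETFDH and ACAA1), against 11.7% of all genes. ACSL4 alone was lower at both, a pattern of 13.4% of all genes. Another 5 were higher at 24 h and not called at 6 h (SLC25A20, ACADS, ACAA2, ETFB and ACOX2), against 19%. A further 4 were higher at 6 h and not called at 24 h (ACSL1, CROT, ACADM and HADH), against 1.9%. Of these, CROT and HADH were called higher at 24 h once probe sets were averaged (0.50 and 0.53), and CROT and ACADM with trended and robust eBayes (adjusted p = 0.0219 and 0.0105). On their brightest probe sets ACSL5 and EHHADH were called lower at 24 h and not called at 6 h. A second ACSL5 probe set was lower at both times, and the mean of the EHHADH probe sets did not pass at 24 h. The remaining members were ABCD3, whose pattern 0.345% of all genes shared, and 8 called at neither time. The shares of all genes called at neither time, or lower only at 24 h, were not counted. Comparisons of both times share the control arrays, so the patterns are not independent of each other.

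The step from 6 h to 24 h was tested directly. At 24 h, 12 members were higher than at 6 h, against 21.2% of all genes, and 8 were lower, against 16.7%. The median step was 0.12 for the members and 0.07 for all genes. When any 6 h or 24 h array was left out, fewer members were called higher, and so were fewer of all genes. Of the members called higher at 6 h, ACSL1, CROT, HADH and ABCD3 were called lower at 24 h than at 6 h, against 2.02% of all genes. For CROT that step was -0.38 ± 0.13 (adjusted p = 0.0494), and it no longer passed when any array other than 24 h replicate 2 was left out (adjusted p from 0.0783 to 0.240). CPT2 climbed again by 0.86 ± 0.08 (adjusted p = 0.000146) and ACSL4 fell again by 1.15 ± 0.10 (adjusted p = 9.91e-05). On the scale of the hybridization spike-ins the step counts were 1 higher and 15 lower, against 5.65% and 44.1% of all genes, and with all spike-ins 1 and 21, against 2.53% and 70.6%.

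Several members start head to head with another measured gene, less than 1 kb away on the opposite strand, and these pairs were compared. HADHA and HADHB, described above, start 307 bases apart and rose together. ACADSB starts 211 bases from IKZF5, a zinc finger factor of the Ikaros family. IKZF5 read 5.97 and 6.10 in control cells, 6.82 and 6.68 at 6 h, and 6.54 and 6.39 at 24 h, a change of 0.71 (adjusted p = 0.000645) and 0.43 (adjusted p = 0.00544), beside 0.72 and 0.55 for ACADSB. On these probe sets both genes had their highest arrays at 6 h, whereas the dimmer ACADSB probe set was highest at 24 h. CROT starts 172 bases from TP53TG1, a noncoding RNA named as a target of p53. CROT read 6.33 and 6.41 in control cells, 7.14 and 6.99 at 6 h, and 6.48 and 6.88 at 24 h, while TP53TG1 read 5.16 and 5.10 in control cells, 5.70 and 5.75 at 6 h, and 6.57 and 6.60 at 24 h. The changes at 6 h were alike in size, 0.69 for CROT and 0.59 for TP53TG1 (adjusted p = 0.000567), and at 24 h they were 0.31 for CROT and 1.45 for TP53TG1 (adjusted p = 1.70e-06). DLG4, 102 bases from ACADVL, changed by -0.48 at 6 h (adjusted p = 0.00323), where ACADVL was at 0.28, and by 0.10 at 24 h, where ACADVL was at 0.74. TRMT44, 54 bases from ACOX3, changed by -0.18 and -0.37 (adjusted p = 0.0186 at 24 h), beside -0.085 and -0.18 for ACOX3, which did not pass at either time. The difference between the genes of a pair was not tested.

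**Figure D3:**
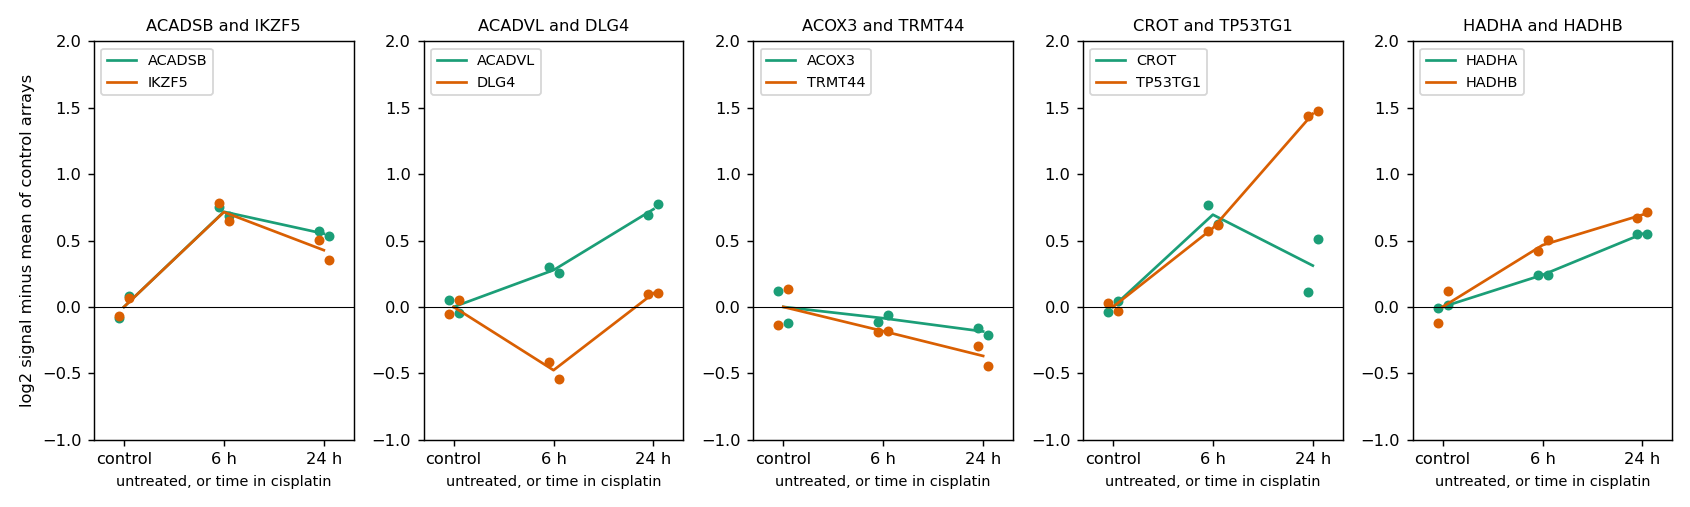
Log2 signal minus the mean of the control arrays for 5 head-to-head gene pairs, with each array as a point and group means as lines, from control cells through 6 h to 24 h of cisplatin. Each gene is shown by its brightest probe set. ACADSB and IKZF5 are both highest at 6 h, though the dimmer ACADSB probe set, not plotted, was at 1.26 at 24 h, and TP53TG1 reaches 1.45 at 24 h while CROT is at 0.31 (0.37 to 0.90 on its other probe sets), on the deposited scale; holding all spike-ins constant lowers each 24 h value by 0.89.

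The stretch before the start of HADHB is shown for a pair in which both genes were called higher at 6 h. It is the 250 bases nearest that start, as read from the RefSeq windows on GRCh38.p14 (chr2:26244689-26244938, plus strand), with GC boxes in capitals.
HADHB: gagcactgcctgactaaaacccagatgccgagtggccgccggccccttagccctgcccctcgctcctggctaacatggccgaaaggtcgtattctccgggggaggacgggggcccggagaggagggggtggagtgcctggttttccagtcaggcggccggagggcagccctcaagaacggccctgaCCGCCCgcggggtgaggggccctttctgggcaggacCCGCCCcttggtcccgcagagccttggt

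GC boxes, the letters bound by Sp1 and related zinc finger factors, recurred across the members. RefSeq windows of 300 bases, from 250 before to 50 after a start, were found for 26 of the 33 members, 38 windows in all, and not for CRAT, DECR1, DECR2, ETFDH, ACOX2, EHHADH and ACAA1. GGGCGG on either strand was in 29 of the 38 windows (76.3%), against 45% of all 35116 windows. By gene it was in 23 of 26 members (88.5%), against 48.3% of all 27305 genes, which include noncoding genes. ACAA2, ACSL5 and CPT1A had none. The PPAR response element, written as AGGTCA repeated with 1 free base between, on either strand, was in 0 of the 38 windows and in 0.0228% of all. The cyclic AMP element TGACGTCA was in 2 windows, both of ACOX3 (5.26%, against 1.85% of all), and the E-box CACGTG was in 0 windows, against 7.26% of all. None of these motifs contains another. A match is a string of letters in these windows and not a bound site.

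Gene length moved with the change. A gene's span, the RefSeq distance from its first to its last base on GRCh38.p14, was a median of 45.3 kb for the members and 25.7 kb for all genes. The 17 members called higher at 24 h spanned 8.14 to 54.0 kb with a median of 21.2 kb, and the 4 called lower spanned 54.3 to 134 kb with a median of 77.7 kb. The 12 not called spanned 3.12 to 96.1 kb, with a median of 78.2 kb, near that of the members called lower. Of 13 members under 35 kb, 11 were called higher and 0 lower at 24 h, with a median of 0.61, against 0.19 for all genes under 35 kb. Of 20 members of 35 kb or more, 6 were called higher and 4 lower, with a median of 0.12, against -0.06 for all genes that long. Over all genes of any length 31.2% were called higher at 24 h and 23% lower. These shares were not counted by length, so the counts of short and long members have no such background. At 6 h the shorter members had a median of 0.31 and the longer 0.22, against 0.07 and -0.04 for all genes of those lengths. As a description across genes, Spearman's rho between span and change at 24 h was -0.65 over the 33 members and -0.35 over 18192 genes, and at 6 h it was -0.41 and -0.24. These points share the same 6 arrays and the same control mean. In each length class the median of the members was above that of all genes, while ACSL4 at 91.9 kb and ABCD3 at 134 kb were among the longest.

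**Figure D4:**
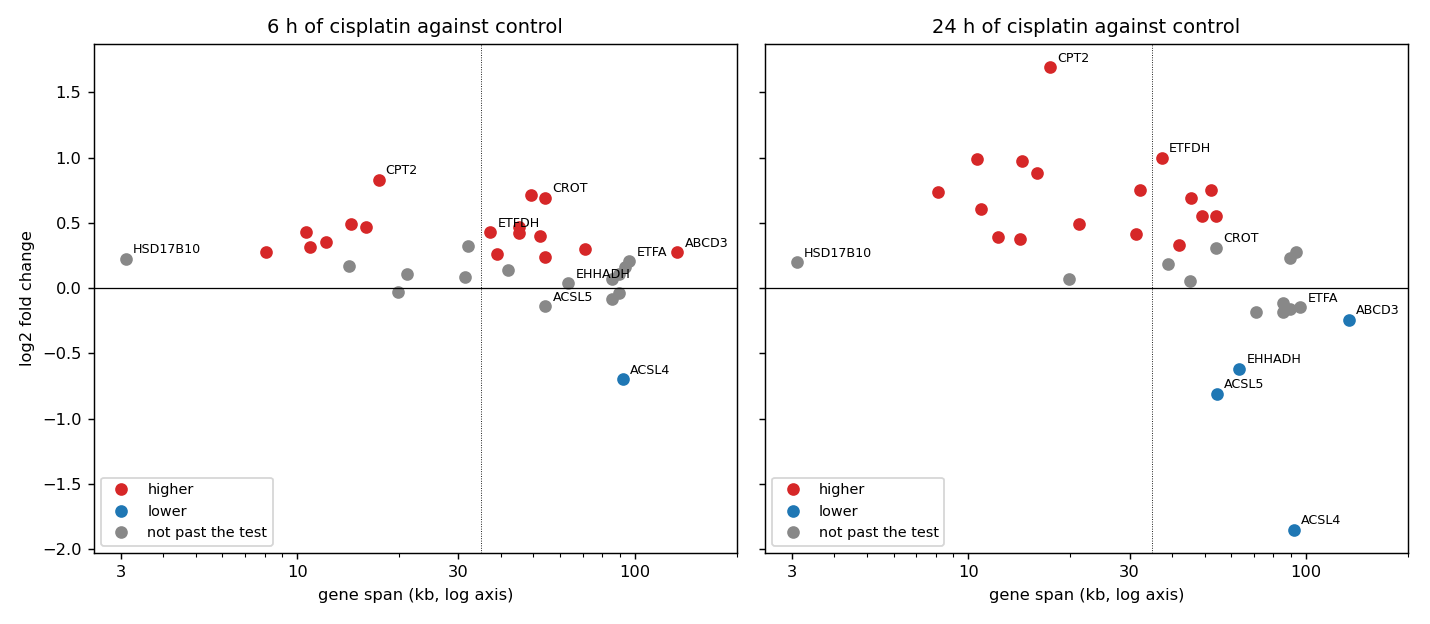
Log2 fold change of the 33 members against gene span in kb (log axis) at 6 h (left) and 24 h (right); red points were called higher, blue lower, grey did not pass, and the dotted line is at 35 kb. At 24 h no member under 35 kb is blue and the 4 blue points lie at 54.3 kb or more, on the deposited scale. The shares of all genes called were not counted by length. Another reference moves all points of a panel up or down together.

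Beyond the members, 111 further genes around the pathway were listed from textbook knowledge, with earlier results of these data known. Of these, 97 were measured. At 24 h, 28 were called higher and 26 lower, with a median of 0.10, the same as all genes, and at 6 h 20 were higher and 12 lower. The 24 h counts are close to the 31.2% and 23% of all genes. With the hybridization spike-ins constant the 24 h counts were 9 and 51, against 9.49% and 53.9% of all genes, and with all spike-ins 3 and 88, against 3.25% and 88.3%. Among 25 other mitochondrial enzymes, 9 rose and 7 fell at 24 h. The propionate branch, which disposes of odd and branched chain ends, went both ways: MCEE, the methylmalonyl-CoA epimerase, rose by 1.70 ± 0.09 (adjusted p = 1.60e-06) and PCCA, a subunit of propionyl-CoA carboxylase, fell by 2.41 ± 0.08 (adjusted p = 2.44e-07). ACAD8, an acyl-CoA dehydrogenase of valine breakdown, rose by 1.57 ± 0.09 (adjusted p = 2.37e-06). Among 16 other peroxisomal genes 5 rose and 2 fell. PHYH, which starts the breakdown of phytanic acid, rose by 1.28 ± 0.11 (adjusted p = 2.35e-05), and TYSND1, the protease that trims peroxisomal oxidation enzymes, by 1.07 ± 0.08 (adjusted p = 1.22e-05). Of 13 peroxisome biogenesis genes 6 rose and 4 fell, with PXMP4, a peroxisomal membrane protein, at 1.13 ± 0.10, PEX6, an ATPase of the import receptor cycle, at 0.87 ± 0.10 and PEX14, the docking factor for import, at -0.97 ± 0.08, all called.

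Around the pathway, genes near malonyl-CoA and partners of the PPAR receptors included called falls, and the partners called rises as well. The first list held 5 genes, ACACA, ACACB, FASN, MLYCD and SCD. Of these, 0 rose and 3 fell at 24 h, against 31.2% and 23% of all genes, and under every scale at least those 3 fell. ACACB and FASN were not called (0.13 ± 0.12 and 0.17 ± 0.10). ACACA, the carboxylase that makes malonyl-CoA, read 8.65 and 8.50 in control cells, 8.05 and 7.97 at 6 h, and 7.07 and 7.17 at 24 h, a change of -1.45 ± 0.09 (adjusted p = 3.44e-06). MLYCD, the decarboxylase that destroys malonyl-CoA, also fell, by 0.69 ± 0.10 (adjusted p = 0.000633), and so did the desaturase SCD, by 0.56 ± 0.09 (adjusted p = 0.00084). Of 22 PPAR targets and partners, 7 rose and 6 fell at 24 h, where 31.2% of all genes were higher and 23% lower, and 1 rose and 5 fell at 6 h. With the hybridization spike-ins constant 0 rose and 12 fell at 24 h, against 9.49% and 53.9% of all genes. RXRA, 1 of the 3 retinoid X receptors that pair with PPAR receptors, read 7.42 and 7.35 in control cells, 5.69 and 5.32 at 6 h, and 5.13 and 4.85 at 24 h, a change of -1.89 ± 0.14 at 6 h (adjusted p = 2.80e-05) and -2.40 ± 0.14 at 24 h (adjusted p = 2.59e-06). The other retinoid X receptors were called higher at 24 h, RXRB by 0.46 ± 0.10 (adjusted p = 0.00363) and the dim RXRG by 0.49 ± 0.09 (adjusted p = 0.00205). PPARG, the receptor of fat storage, fell at both times, with -1.29 ± 0.10 and -1.87 ± 0.10 (adjusted p = 2.19e-06 at 24 h), and so did the coactivator NCOA1, with -0.49 ± 0.10 and -0.77 ± 0.10. Fatty acid entry showed few calls, 0 higher and 2 lower of 14 at 24 h, SLC27A2 at -1.09 ± 0.13 from a dim control level of 3.71 and 4.10, and SLC27A5 at -0.52 ± 0.09. With the hybridization spike-ins constant 10 of those 14 were lower. Of 5 ketone and thiolase genes 1 rose and 3 fell at 24 h: BDH1, the mitochondrial 3-hydroxybutyrate dehydrogenase, fell by 1.21 ± 0.09 (adjusted p = 1.03e-05), ACAT2, the cytosolic acetoacetyl-CoA thiolase, by 0.39 ± 0.08 (adjusted p = 0.00246), and BDH2, the cytosolic 3-hydroxybutyrate dehydrogenase, rose by 0.75 ± 0.08 (adjusted p = 9.64e-05).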

How the data were processed

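Total RNA of HK-2 cells, untreated or given 50 μM cisplatin for 6 h or 24 h, was hybridized to 6 single-colour Affymetrix arrays, 2 per group. The deposited log2 values were made by the authors with RMA (robust multi-array average) in Expression Console 1.1 of Affymetrix, per the submitters' processing notes, which corrects background, gives all arrays 1 distribution and summarizes each probe set. No further normalization was applied for the main results. Of 49386 probe sets, 45253 had 1 gene in the platform annotation, of which 45172 were matched by Entrez number to current symbols, 1327 had several, 2713 were unnamed here and 93 were controls. The brightest one-gene probe set stood for each of 18239 genes. The number of arrays limits the precision.

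Genes were tested with limma 3.58.1 (R 4.3.3), lmFit and eBayes in 1 fit of 3 groups with 3 residual degrees of freedom, after a check on simulated data. Tables, sequence searches and figures were made in Python 3.11.15 (pandas 2.3.3, numpy 2.4.6, scipy 1.17.1, matplotlib 3.10.9). The members and all lists were chosen with earlier results of these data known, so no test was made over a list. Values on every array are given for up to 3 members per role with the largest change at 24 h, for members called in opposite directions and for those changed by at least 1 on the log2 scale. CROT, shown for its neighbour, RXRB and RXRG were added after their values were seen. From each other list up to 3 called genes are named.

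Alternatives were an adjusted p under 0.01, a fold of at least 2 with an unadjusted p under 0.01 (the thresholds of the study), a block for the replicate number, averaging all probe sets of a gene, trended and robust eBayes, a fit of only 2 groups, a filter of at least 5 on 2 arrays, 3 references held constant and leaving out each array. Deviations of same-numbered arrays correlated at 0.05, -0.06 and -0.06 between groups, so the numbers were not taken to pair the arrays. Promoter windows and spans came from RefSeq tables of GRCh38.p14. The sequences of 2 promoters are not reported here.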

Additional observations from a re-analysis of the deposited data

Results flagged for a closer look

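The change at 24 h differed from the change at 6 h, by the limma test of 24 h against 6 h at an adjusted p under 0.05, for 20 of the 33 members. The log2 change was greater at 24 h for 12 members: CPT2 by 0.86, CRAT by 0.41, ACADVL by 0.46, ECHS1 by 0.30, HADHA by 0.31, ACAA2 by 0.34, DECR1 by 0.35, DECR2 by 0.55, ETFB by 0.38, ETFDH by 0.57, ACOX2 by 0.43 and ACAA1 by 0.48. It was lower at 24 h for 8 members, with these differences on the log2 scale: ACSL1 -0.49, ACSL4 -1.15, ACSL5 -0.67, CROT -0.38, HADH -0.36, ETFA -0.35, ABCD3 -0.52 and EHHADH -0.65. Calls in this comparison covered 21.2% of all genes upward and 16.7% downward, and groups of 2 arrays were too small for a search for outlying samples.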

How the results depend on the processing

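The limits lie in the scale and in 2 arrays per group. Across the replicate block, averaged probe sets, trended and robust eBayes, a fit of only 2 groups, the filter on dim genes, constant housekeeping genes and each array left out, 18 of the 21 calls at 24 h kept direction and threshold (exceptions ACADS, ABCD3 and EHHADH), as did 7 of 18 at 6 h (ACSL4, CPT2, CROT, ACADSB, HADH, DECR2 and ACAA1). With both spike-in references added, ACSL4, ACSL5 and CPT2 kept theirs at 24 h and ACSL4, CPT2 and ACADSB at 6 h. Members near the dim end, such as CPT1A, ACOX2 and PPARA, limit what the arrays can show. The cause of each change was not tested.

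With the replicate number as a block, 13 members were higher at 6 h and 18 at 24 h, against 2399 and 5619 of all 18239 genes. At 24 h 3 members were lower, against 4097 genes, and 12 exceeded their 6 h level, against 3753 genes. Other pathway genes gave 17 higher at 6 h and 26 at 24 h under the block.

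At an adjusted p under 0.01, 8 members were higher at 6 h, against 1538 of all 18239 genes. By the same threshold 5 exceeded their 6 h level at 24 h, against 2120 genes. The fold of 2 with an unadjusted p under 0.01 left 0 members in either direction at 6 h, 2 risers and 1 faller at 24 h, and 0 risers and 1 faller for 24 h against 6 h. After averaging probe sets, 2 members were lower at 24 h, against 3866 of all 18239 genes. At 24 h 4 were below their 6 h level, against 2583 genes. Member medians were then 0.31 at 6 h, 0.29 at 24 h and 0.0697 between times.

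With the hybridization spike-ins constant, 9 members were higher at 6 h. At 24 h 9 were higher and 11 lower, and the step between times gave 1 higher and 15 lower, with medians of 0.17 (6 h), -0.0774 (24 h) and -0.19 (step). Of other pathway genes, 12 rose at 6 h, 9 rose and 51 fell at 24 h, and the step gave 4 risers and 45 fallers. With all spike-ins constant, members had 2 risers and 6 fallers at 6 h, 1 riser and 24 fallers at 24 h, and 1 riser and 21 fallers in the step. Their medians were -0.11 (6 h), -0.55 (24 h) and -0.39 (step). Other pathway genes then had 6 risers and 53 fallers at 6 h, 3 and 88 at 24 h, and 2 and 68 in the step. Under constant housekeeping genes 9 members were higher at 6 h, medians were 0.17 (6 h), 0.27 (24 h) and 0.15 (step), and 19 other pathway genes were lower at 6 h.

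Leaving out 1 array, members higher numbered 8 to 17 at 6 h and 6 to 11 in the step, and the member median was 0.28 to 0.43 at 24 h and 0.0741 to 0.17 in the step. Calls of all genes higher at 6 h also became fewer without a control or 6 h array. In the step, calls of all genes higher became fewer whichever array was left out, so these drops are not particular to the members. Other pathway genes higher numbered 13 to 20 at 6 h, and in the step 9 to 17 were higher and 15 to 24 lower.

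Single members changed sign as follows, as log2 fold changes. Under all spike-ins at 6 h: ACSL1 -0.070, SLC25A20 -0.23, ACADS -0.20, ACADM -0.11, ACADVL -0.094, ECHS1 -0.059, HADHA -0.13, ACAA2 -0.29, HSD17B10 -0.15, ECI1 -0.017, ETFA -0.16, ETFB -0.26, ABCD3 -0.096, ACOX2 -0.045, EHHADH -0.33, HSD17B4 -0.26, PPARA -0.21 and PPARD -0.30. Under all spike-ins at 24 h: SLC25A20 -0.55, CRAT -0.0037, CROT -0.57, ACADS -0.51, ACADM -0.70, ACADVL -0.15, ACADSB -0.33, ECHS1 -0.28, HADH -0.83, HADHA -0.33, HADHB -0.19, ACAA2 -0.47, HSD17B10 -0.69, ECI1 -0.49, ECI2 -0.81, DECR1 -0.13, ETFB -0.40, ACOX2 -0.13, HSD17B4 -0.65 and PPARA -0.60. Under all spike-ins in the step: CRAT -0.10, ACADVL -0.055, ECHS1 -0.22, HADHA -0.20, ACAA2 -0.18, DECR1 -0.16, ETFB -0.13, ACOX2 -0.086 and ACAA1 -0.030. Under hybridization spike-ins: ACAA2 -0.015, EHHADH -0.060 and PPARD -0.030 at 6 h, SLC25A20 -0.077, CROT -0.099, ACADS -0.035, ACADM -0.23, HADH -0.35, HSD17B10 -0.21, ECI1 -0.018, ECI2 -0.34, HSD17B4 -0.18 and PPARA -0.13 at 24 h, and ECHS1 -0.015 and HADHA -0.0031 in the step. Under housekeeping genes: ACAA2 -0.013, EHHADH -0.059 and PPARD -0.029 at 6 h and HADH -0.0047 at 24 h. With averaged probe sets: ACADS -0.063, ECI2 0.12 and PPARA -0.024 at 6 h, ACSL1 0.076 and PPARD 0.051 at 24 h, and HADH 0.029 in the step. At 6 h with 1 array left out: ACSL5 (-0.28 to 0.0045), CPT1A (-0.16 to 0.097), ECI2 (-0.087 to 0.023), ETFB (-0.031 to 0.25), ACOX3 (-0.21 to 0.036), EHHADH (-0.12 to 0.19), PPARA (-0.015 to 0.34).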
